A study of Mus musculus with 165 samples.

Results

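Described here are 10 genes of T cells and cytotoxic lymphocytes: Cd3d, Cd3e, Cd8a, Cd8b1, Gzma, Gzmb, Gzmk, Nkg7, Ccl5 and Pdcd1. They were taken by name from the 55471 genes of the deposited count tables, and each matched 1 Ensembl identifier, so that 10 of 55471 genes are described. Poly(A) RNA was sequenced from the livers and brains of male C57BL/6J/Ukj mice that had reached 3, 9, 15, 24 or 28 months of age, and the labels name no treatment and no engineered allele in any group. The liver groups held 16, 16, 16, 17 and 18 libraries and the brain groups 15, 16, 16, 17 and 18, in order of age, with 1 brain and 1 liver from each of 82 mice. The labels do not say which region or lobe was taken, or whether the vessels were flushed of blood. Every library carries 1 of 3 batch labels, called prep 1 to prep 3, and each prep held all 5 ages in both tissues. A filter on low counts kept all 10 genes in liver, among 15579 genes, and 2 of the 10 in brain, Gzmk and Ccl5, among 18711 genes.

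T cells recognise antigen through a receptor that signals through the CD3 chains, of which Cd3d and Cd3e encode the delta and epsilon subunits. Cd8a and Cd8b1 encode the chains of the CD8 coreceptor, which binds MHC class I and marks the cytotoxic subset. Gzma, Gzmb and Gzmk encode granzymes, serine proteases stored in cytotoxic granules, Nkg7 encodes a membrane protein of those granules, and Ccl5 encodes a chemokine that memory and effector T cells and natural killer cells release. Pdcd1 encodes PD-1, an inhibitory receptor of activated and chronically stimulated T cells. Several of these genes are shared by T cells and natural killer cells, whereas the CD3 and CD8 beta chain genes are used mainly by T cells. The liver holds resident and circulating lymphocytes in its sinusoids, and the healthy brain holds few of them.

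RefSeq gave a start site in the GRCm38.p6 build for 8 of the 10 genes, all but Cd8b1 and Ccl5. The 250 bases upstream of the start are shown for the 4 effector genes in which a short sequence word of a Runx or a T-box factor was found, because Runx3, Tbx21 and Eomes of those families direct the cytotoxic programme and their own levels are given further on. Capitals mark TGTGGT (Runx) or TCACAC (T-box), on either strand.
Gzmb, chr14:56262335-56262584, minus strand: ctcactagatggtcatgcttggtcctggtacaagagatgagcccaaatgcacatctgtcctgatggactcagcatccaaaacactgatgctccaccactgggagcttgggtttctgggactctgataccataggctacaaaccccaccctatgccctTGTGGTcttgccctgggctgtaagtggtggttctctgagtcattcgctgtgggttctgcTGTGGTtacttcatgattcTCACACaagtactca
Gzmk, chr13:113180966-113181215, minus strand: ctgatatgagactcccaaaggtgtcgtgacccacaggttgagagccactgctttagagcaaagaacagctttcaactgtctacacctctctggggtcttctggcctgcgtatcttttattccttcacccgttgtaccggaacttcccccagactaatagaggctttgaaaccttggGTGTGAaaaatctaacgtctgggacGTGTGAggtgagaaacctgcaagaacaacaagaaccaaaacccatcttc
Nkg7, chr7:43436888-43437137, plus strand: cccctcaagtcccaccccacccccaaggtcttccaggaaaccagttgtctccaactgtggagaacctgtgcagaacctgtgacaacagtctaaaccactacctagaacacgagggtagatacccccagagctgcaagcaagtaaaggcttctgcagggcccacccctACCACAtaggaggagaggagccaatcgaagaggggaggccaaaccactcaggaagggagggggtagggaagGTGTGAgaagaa
Gzma, chr13:113100982-113101231, minus strand: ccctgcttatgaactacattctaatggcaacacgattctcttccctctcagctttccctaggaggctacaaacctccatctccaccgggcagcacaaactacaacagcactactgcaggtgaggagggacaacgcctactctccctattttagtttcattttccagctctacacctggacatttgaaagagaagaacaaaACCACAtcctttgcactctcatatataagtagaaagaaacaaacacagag
The Runx word stood in 3 of the 8 promoters (Gzma, Gzmb and Nkg7) and in 14.0% of the 32851 promoters of the same length. The T-box word stood in 3 of 8 (Gzmb, Gzmk and Nkg7) against 12.3% of all promoters, with 2 copies in Gzmk. Of 5 further words searched on both strands, the AP-1 word TGANTCA stood in Gzmb alone (6.75% of all promoters). The NFAT word TTTTCC (20.4%) and the word of IRF factors (2.98%) stood in Gzma alone, where their matches share 5 bases. The CRE word TGACGTCA (1.55% of all promoters) and the NF-kB word GGGNNTTCC (4.98%) were in none of the 8. These are matches of letters only.

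Depth ran from 5.82 to 57.5 M counts in liver (median 32.9 M counts) and from 11.5 to 73.4 M counts in brain (median 37.6 M counts). A level is given as CPM, a count scaled to library size with the TMM method, and a library in which a gene had 3 counts or fewer is called at the floor, which lay at a median of 0.0875 CPM in liver and 0.0792 CPM in brain. The labelled tissues matched their markers: Alb and Apoa1 summed to between 16687 and 112795 CPM in every liver and at most 21.1 CPM in any brain, and Snap25 and Syt1 to between 1533 and 4775 CPM in every brain and at most 54.5 CPM in any liver. Libraries that stood apart are named here because results rest on them. Among the livers, 3 months replicate 12 was the highest of its age for 10 of 10 genes, and of the 24-month livers replicate 13 was highest for 8 and replicate 10 for the other 2. At 15 months replicate 7 was highest for 9 of 10, and it was left out only in a separate fit. Among the brains, 24 months replicate 13, from the mouse of that liver, and 28 months replicate 15 had neuron markers of 3501 and 1533 CPM, rank 16 of 17 and 18 of 18 from the top, and leukocyte markers of 210 and 356 CPM, the highest of their ages (medians 136 and 138). In liver 28 against 3, 15 against 3, 24 against 15 and 28 against 24 months are given with and without these libraries. In brain so are 28 against 3 months and, for Ccl5, 24 against 15 months. The lists and the levels per kilobase are given with all libraries. Since the livers were picked for these very genes, the values without them were moved by that choice. By itself it raises 9, 15 and 28 against 3 months and 28 against 24 months. It lowers the step from 15 to 24 months.

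In old livers 9 of the 10 genes were higher. From 3 to 28 months the CD3, CD8, Gzmb, Gzmk, Nkg7, Ccl5 and Pdcd1 transcripts rose between 3.10-fold and 9.72-fold, and Gzma did not pass the test. The median log2 fold change of the 10 genes was 2.42, beside 0.01 over all 15579 genes tested. With edgeR's quasi-likelihood test across all liver libraries (prep as a term, Benjamini-Hochberg adjustment over all genes tested, called at an adjusted p under 0.05), 9 of 10 were called higher and 0 lower, while 31.9% of all genes tested were called higher and 30.0% lower. In bulk samples such as these, a change in the number of cells of a type and a change in RNA per cell cannot be told apart, so that fewer cells and less RNA per cell look alike.

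**Figure D1:**
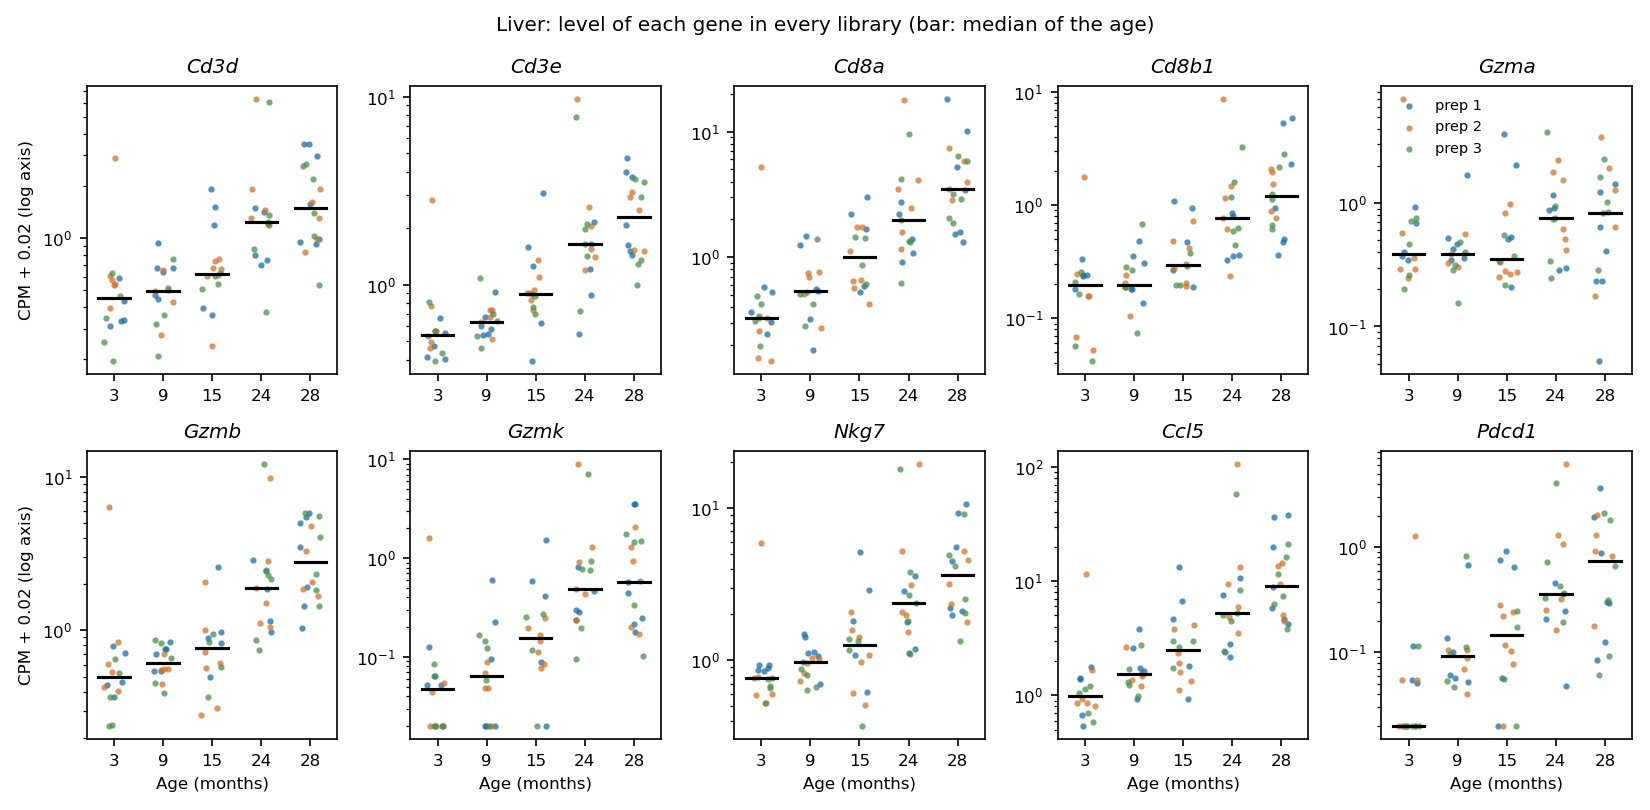
Level of each gene in every liver library, as CPM plus 0.02 on a log axis, against age in months, with colours for the 3 preps and a bar at the median of each age. Medians step up between 15 and 24 months for all 10 genes, and single livers at 3, 15 and 24 months lie far above the rest of their age.

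Among the receptor chains, Cd3e lay between 0.372 and 2.79 CPM at 3 months (median 0.523, n = 16) and between 0.977 and 4.73 CPM at 28 months (median 2.27, n = 18). Every 28-month liver was above the median of the young ones, and 8 of 18 were above the highest young liver, which was replicate 12. The rise was 3.81-fold (log2 1.93 ± 0.29 SE, adjusted p = 2.41e-08). Cd3d lay between 0.175 and 2.88 CPM at 3 months (median 0.429) and between 0.513 and 3.47 CPM at 28 months (median 1.46), a 3.10-fold rise (log2 1.63 ± 0.32, adjusted p = 7.72e-06). Its groups overlapped through replicate 12: 3 of 18 old livers lay above the highest young liver, and 17 of 18 did once that liver was left out. Exons of Cd3e share 135 bases, 3.31% of their length, with Gm48719 on the opposite strand, and the strand setting of the authors' counting is not given in the sources used here.

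The fitted changes of the coreceptor chains were larger, and the levels of both relative to Cd3e are given further on. Cd8a lay between 0.129 and 5.19 CPM at 3 months (median 0.308) and between 1.30 and 18.1 CPM at 28 months (median 3.45), which was 8.22-fold higher (log2 3.04 ± 0.43, adjusted p = 6.94e-09). Without replicate 12 the groups did not overlap, since the highest other young liver stood at 0.559 CPM. Cd8b1 lay between 0.0219 and 1.74 CPM at 3 months (median 0.177, 4 of 16 livers at the floor) and between 0.343 and 5.83 CPM at 28 months (median 1.18), 6.99-fold higher (log2 2.81 ± 0.45, adjusted p = 1.15e-07). The highest old liver for both chains was 28 months replicate 9, at 18.1 CPM of Cd8a, in which Gzmk was at 0.227 CPM, Pdcd1 at 0.0648 CPM and Gzma, at 0.0324 CPM, was the lowest of its age.

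Of the 3 granzymes, Gzmb and Gzmk were called higher and Gzma was not, and they were not tested against one another. Gzmb lay between 0.219 and 6.36 CPM at 3 months (median 0.478) and between 1.01 and 5.78 CPM at 28 months (median 2.77), 3.99-fold higher (log2 1.99 ± 0.37, adjusted p = 2.92e-06). No old liver exceeded young replicate 12, whereas all 18 exceeded the other 15 young livers. Gzmk was at the floor in 15 of 16 young livers, 7 of them with 0 counts, and lay between 0.0812 and 3.50 CPM at 28 months (median 0.558), with 1 of 18 at the floor. The fitted change was 8.42-fold (log2 3.07 ± 0.67, adjusted p = 5.90e-05). Left without replicate 12, all 15 young livers were at the floor, and the 28-month mean of 1.04 CPM was at least 10.6-fold higher than the mean 3-count floor of those livers, 0.0980 CPM. Gzma lay between 0.182 and 6.92 CPM at 3 months (median 0.364) and between 0.0324 and 3.38 CPM at 28 months (median 0.815). Its groups overlapped widely, and the change of 0.34 ± 0.43 on the log2 scale had an adjusted p of 0.505. Without the single liver of 3 months replicate 12, Gzma was called (log2 1.22, adjusted p = 0.00632), with 8 of 18 old livers above the highest of the remaining young ones.

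Nkg7 lay between 0.503 and 5.91 CPM at 3 months (median 0.746) and between 1.32 and 10.6 CPM at 28 months (median 3.62), 4.12-fold higher (log2 2.04 ± 0.36, adjusted p = 1.25e-06). Ccl5 lay between 0.519 and 11.5 CPM at 3 months (median 0.968) and between 3.76 and 38.0 CPM at 28 months (median 9.12), 8.01-fold higher (log2 3.00 ± 0.47, adjusted p = 9.10e-08). For both genes every old liver was above every young liver but replicate 12. Pdcd1 had 0 counts in 9 of 16 young livers and was at the floor in 15, and lay between 0.0406 and 3.61 CPM at 28 months (median 0.725), with 3 of 18 at the floor. The fitted change was 9.72-fold (log2 3.28 ± 0.69, adjusted p = 2.84e-05), and without replicate 12 the 28-month mean of 0.956 CPM was at least 9.75-fold higher than the floor of the young livers.

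Leaving out the 3 livers that stood apart raised all 10 differences between 28 and 3 months, and 10 of 10 genes were then called higher, with 64.2% of all genes tested called in either direction. The log2 fold changes became 2.02 for Cd3d, 2.20 for Cd3e, 3.88 for Cd8a, 3.44 for Cd8b1, 2.71 for Gzmb, 2.52 for Nkg7 and 3.58 for Ccl5. Gzma reached 1.22 ± 0.38 (adjusted p = 0.0042), while the fitted values of Gzmk and Pdcd1, 5.15 and 5.26, rest on young livers at the floor. Within prep 1 alone 9 of 10 were called (39.9% of all genes tested) and within prep 3 alone 9 of 10 (42.2%). Within prep 2, which held young replicate 12, 1 of 10 was called (15.6%), Cd8a at 2.14, and all 10 changes were above 0 in each of the 3 preps. The 3 livers were also high for other cell types. Young replicate 12 summed to 205 CPM of leukocyte markers (median of its age 50.6), 528 CPM of macrophage markers (median 175) and 3.69 CPM of natural killer cell markers (median 1.10), the highest of 16 for each. Replicate 13 at 24 months had 609 CPM of B cell markers (median 23.5) and 163 CPM of markers of lymphoid stroma and thymus (median 23.4), and replicate 10 had 551 CPM of neutrophil markers (median 14.2) and 33.0 CPM of platelet markers (median 5.84). The part of these cell types in the members' levels was not tested.

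In liver the step passed the test between 15 and 24 months. From 3 to 9 months 0 of 10 genes were called (4.69% of all genes tested) and from 9 to 15 months 0 of 10 (0.0514%, 8 genes, with 670 genes at an unadjusted p under 0.05). From 3 to 15 months 0 of 10 were called as well (7.32%), with log2 changes from -0.19 for Gzma to 1.27 for Pdcd1. From 15 to 24 months 9 of 10 were called higher, all but Gzma (21.6% of all genes tested were called higher), with log2 changes from 1.18 for Cd3e to 2.48 for Gzmk. By 24 months 9 of 10 were above 3 months (25.0% of all genes tested were higher). From 24 to 28 months 0 of 10 were called (15.3% of all genes tested in either direction).

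The median of Ccl5 was 0.968, 1.53, 2.48, 5.22 and 9.12 CPM at the 5 ages, although its fitted change from 24 to 28 months was -0.20 ± 0.42. Ccl5 at 24 months reached 106 CPM in replicate 13 and 58.0 CPM in replicate 10, against 13.2 CPM in the highest liver at 15 months. Cd8a medians were 0.308, 0.515, 0.982, 1.95 and 3.45 CPM, and those of Gzmk 0.0277, 0.0435, 0.136, 0.468 and 0.558 CPM. For all 3 genes the medians thus went up at each age in turn, while the test between neighbouring ages was passed from 15 to 24 months alone. Pdcd1 between 15 and 24 months (log2 1.97 ± 0.65, adjusted p = 0.0122) rested on replicate 13, without which it was 1.39 with an adjusted p of 0.0826.

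The 2 comparisons next to that step turned on the livers that stood apart. Without the 3 of them, 9 of 10 genes, all but Gzma, were called higher at 15 than at 3 months (10.9% of all genes tested were called), among them Cd8a (log2 1.88 ± 0.34, adjusted p = 7.31e-05), Gzmk (3.15 ± 0.70) and Pdcd1 (3.26 ± 0.78). From 24 to 28 months 7 of 10 were then called higher (30.5% of all genes tested were called), with Cd8a at 1.19 ± 0.29, Cd8b1 at 1.13 ± 0.31 and Ccl5 at 1.03 ± 0.29. Leaving out livers that were highest at 24 months for these genes raises this comparison by itself. Leaving out 3 months replicate 12 alone gave 7 of 10 at 15 against 3 months (8.61% of all genes tested were called). From 15 to 24 months 7 of 10 were called without the 3 livers (26.1% of all genes tested), with Gzmk at 1.15 and Pdcd1 at 0.86 no longer among them. This exclusion was unequal, since it took the highest livers at 3 and 24 months and kept that of 15 months replicate 7 (Gzmk 1.51 CPM, median of its age 0.136, and Nkg7 5.13 CPM, median 1.23). With that liver left out as well, 7 of 10 were called higher at 15 than at 3 months (8.89% of all genes tested), with Cd3d (0.65 ± 0.24) and Gzmb (0.67 ± 0.25) no longer called. From 15 to 24 months 8 of 10 were then called (26.9%), Gzmk at 1.60 ± 0.48 among them, while Pdcd1 was at 1.12 ± 0.53 (adjusted p = 0.109).

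**Figure D2:**
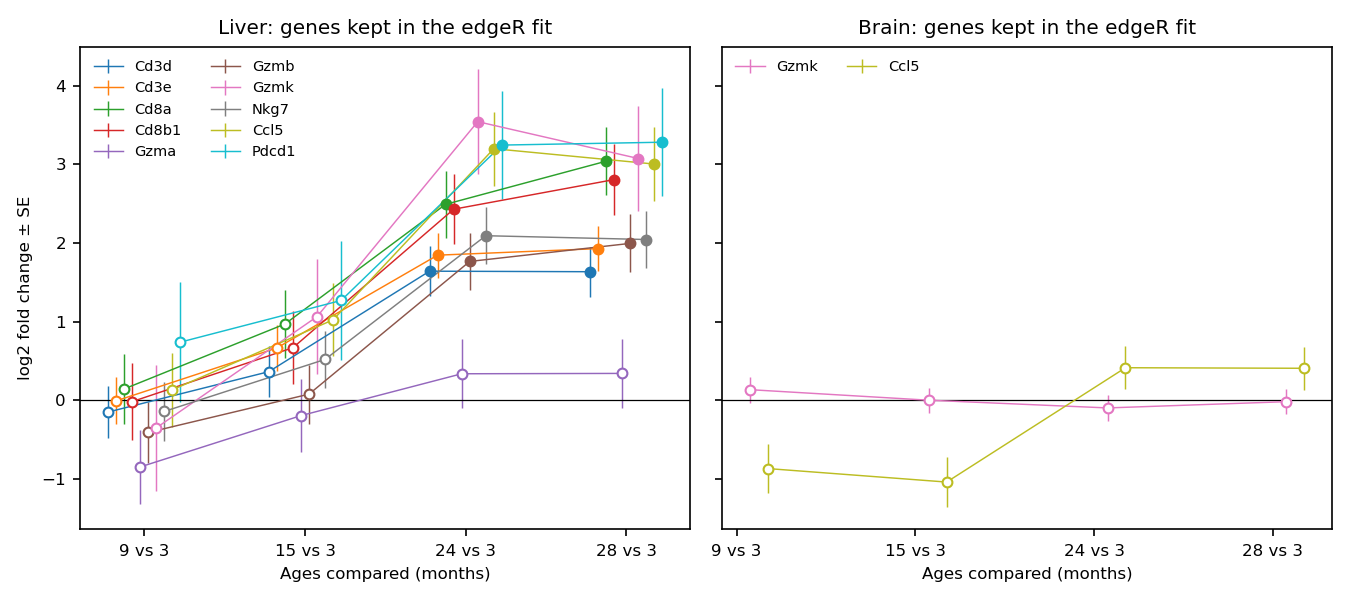
Log2 fold change with its SE for each age against 3 months, in liver (10 genes) and in brain (the 2 genes kept in the fit). Filled points passed the test and open points did not. In liver 9 genes are filled at 24 and 28 months and none at 9 or 15 months, and in brain none is filled.

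The genes did not change in proportion. Each was set against Cd3e of the same library as a difference of log2(CPM + 0.1), and 9 such ratios were compared between 18 old and 16 young livers by two-sided permutation tests with 100000 resamples. Cd8a relative to Cd3e was 1.27 higher on the log2 scale at 28 months (2.42-fold), and Ccl5 1.24 higher (2.36-fold). In both cases all 18 old livers lay above the median of the young ones, with p = 1e-05, the smallest these permutations can give, and 4.50e-05 after Benjamini-Hochberg adjustment over the 9 ratios. Gzma relative to Cd3e was lower, by a difference of -1.34, and 2 of 18 old livers were above the young median (permutation p = 0.00014, adjusted 0.00042). Cd8b1 was 0.56 higher (permutation p = 0.0129, adjusted 0.0290), a value that became -0.034 with a pseudocount of 1. The ratios of Cd3d (-0.25), Gzmb (0.37), Gzmk (0.59), Nkg7 (0.21) and Pdcd1 (0.49) had adjusted permutation p from 0.0802 to 0.161. Those of Gzmk and Pdcd1 turned on the pseudocount. With 1 they were -0.28 and -0.31 (adjusted permutation p = 0.0285 and 0.0392), and with 0.01 they were 2.31 and 2.32 (adjusted permutation p = 0.00048 and 0.000972). Cd3d (-0.25) and Nkg7 (0.29) also passed with 1 (adjusted permutation p = 0.00063 and 0.0115). Without 3 months replicate 12, Gzmb (0.45) and Gzmk (0.68) passed (adjusted permutation p = 0.0246 and 0.0401).

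**Figure D3:**
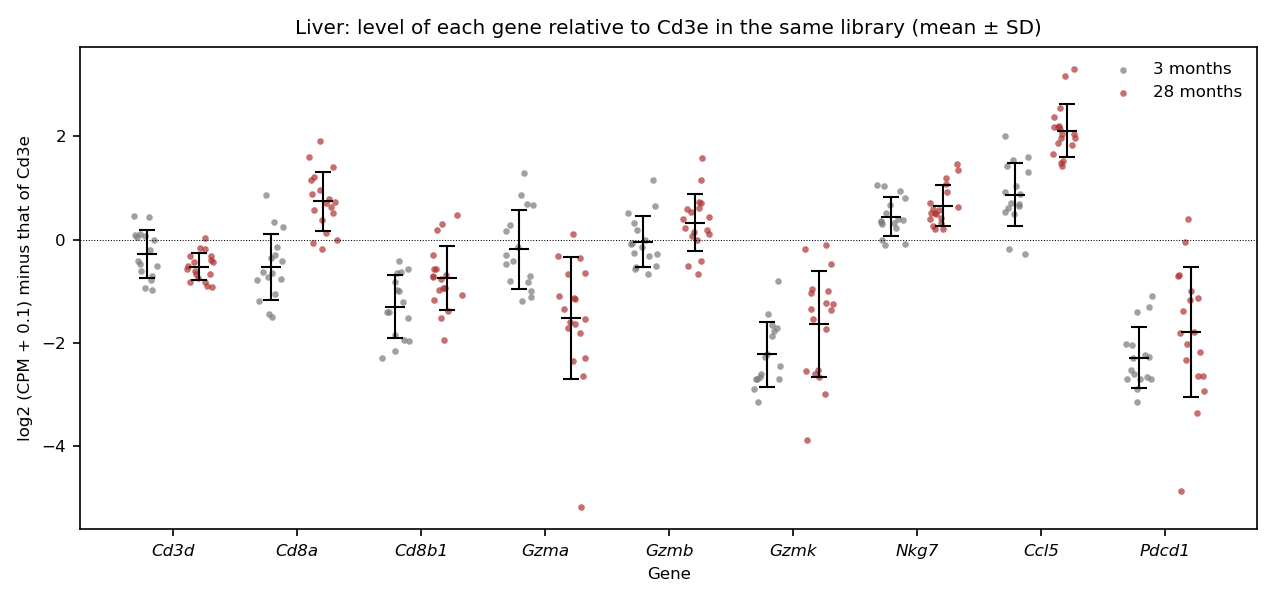
Log2(CPM + 0.1) of each gene minus that of Cd3e in the same liver library, at 3 months (grey, 16 libraries) and 28 months (red, 18 libraries), with mean and SD in black. Cd8a and Ccl5 lie higher in the old livers and Gzma lower.

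Per kilobase of merged exons, Ccl5 was the most abundant of the 10 in liver at both ends of the age range, with a median of 1.01 CPM per kilobase at 3 months and 9.50 at 28 months. Nkg7 came next with 0.817 and 3.96, and then, at 28 months, Gzmb with 1.93. Cd8a ranked 8 of 10 at 3 months with 0.0847 CPM per kilobase and 4 of 10 at 28 months with 0.949. Gzma ranked 3 at 3 months with 0.362 and 5 at 28 months with 0.810. At 28 months the medians of Cd8a, Gzma, Cd3d (0.805) and Cd8b1 (0.797) differed by less than the spread between libraries of any of them.

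Livers high in 1 of the genes were high in the others. Over 83 livers, with age and prep means removed, Pearson's r of log2(CPM + 0.1) ran from 0.54 to 0.91 over the 45 pairs of genes (median 0.77) and Spearman's rho from 0.43 to 0.83. All 45 pairs had an adjusted permutation p of at most 0.00029 for both measures, over the 45 pairs, with the values of 1 gene permuted within age. Without the 2 livers farthest from the median of the first gene of a pair, r ran from 0.47 to 0.88. Nkg7 and Ccl5 followed the rest most closely (median r of 0.85 each) and Gzma least (0.65). Over all genes kept in liver, those most like Cd3e by r of log2 CPM in the 83 livers, also with age and prep means removed, were Ccl5 (0.90), Trac (0.89), Ms4a4b (0.89), Nkg7 (0.88) and Lat (0.88). Those most like Gzmk were Nkg7 (0.85), Ccl5 (0.84), Tigit (0.83), Tgtp2 (0.83) and Cxcl9 (0.83). These genes share their libraries, and so the depth and cell content of each liver.

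Other genes of the same pathways, from lists chosen with earlier results of these data known, were read in the same fit, in which 31.9% of all genes tested were called higher and 30.0% lower. Of 16 genes of the T cell receptor complex and its proximal signalling, 16 were called higher in liver at 28 than at 3 months (median log2 fold change 1.86), led by the adhesion receptor Cd2 (2.98), the inhibitory scavenger receptor Cd5 (2.37) and Ubash3a (2.28), a negative regulator of receptor signalling. Of 12 cytotoxic effector and lectin-like receptor genes 10 were tested and 8 were called higher, with Slamf7 (1.88), the protease Ctsw (1.81) and the pore-forming perforin gene Prf1 (1.70) ahead. Gzmm (0.09 ± 0.26) and Klrc1 (0.49 ± 0.26) were not called, and Ifng and Klrg1 were below the filter. Among inhibitory receptors and the regulator Tox, 5 of 6 were called higher, with Ctla4 (4.55 ± 0.79), Tigit (2.79) and Cd244a (2.37) ahead and Lag3 (0.42 ± 0.33) not called.

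Of 8 lymphocyte transcription factor genes 8 were called higher. Eomes (2.81 ± 0.52), which drives memory and effector programmes of CD8 T cells, Bcl11b (2.08), a T cell identity factor, and Runx3 (2.03), a CD8 lineage factor, had the largest changes of the 8, and Tbx21, the T-bet gene, was at 1.60 ± 0.28. Of 12 homing, residency and cytokine receptor genes 10 were called higher, among them the interleukin-7 receptor gene Il7r (2.27) and the residency marker Cd69 (2.12). S1pr1, the receptor for exit into the blood, was called lower (-0.41 ± 0.08), and Itgae (0.35 ± 0.21) was not called. In liver these 12 genes summed to a median of 133 CPM at 3 months, beside 0.523 CPM of Cd3e. Which cells made them was not tested. On the ligand side, 4 of 6 genes were called higher: Pdcd1lg2 (2.94) and Cd274 (1.72), which encode the PD-1 ligands, Cxcl16 (1.00) and Il15 (0.90). The chemokine genes Cxcl9 (0.72 ± 0.37) and Cxcl10 (0.41 ± 0.32) were not called.

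Markers of other cells moved in the same comparison, in which 31.9% of all liver genes were called higher. In liver, 5 of 5 B cell genes (median log2 fold change 2.84), 4 of 4 macrophage genes (1.40), 4 of 4 neutrophil genes (4.61) and 3 of 3 platelet genes (1.83) were called higher. Summed leukocyte markers ran from 39.1 to 205 CPM at 3 months and from 69.3 to 492 CPM at 28 months. Natural killer cell genes were called higher in 2 of 3 tested (median 0.76), with Ncr1 at 0.76 and Klrb1c at 0.92. The sum of the 5 natural killer genes had a median of 1.10 CPM at 3 months and 1.77 CPM at 28 months. Of the CD4 and regulatory T cell genes, Foxp3 (1.98 ± 0.49) and Icos (0.66 ± 0.18) were called higher, and Cd4 was at -0.52 ± 0.25 with an adjusted p of 0.0615. Alb (0.22 ± 0.12) and Apoa1 (0.06 ± 0.10), the hepatocyte markers, were not called. The part of these cell types in the members' changes was not tested.

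**Figure D4:**
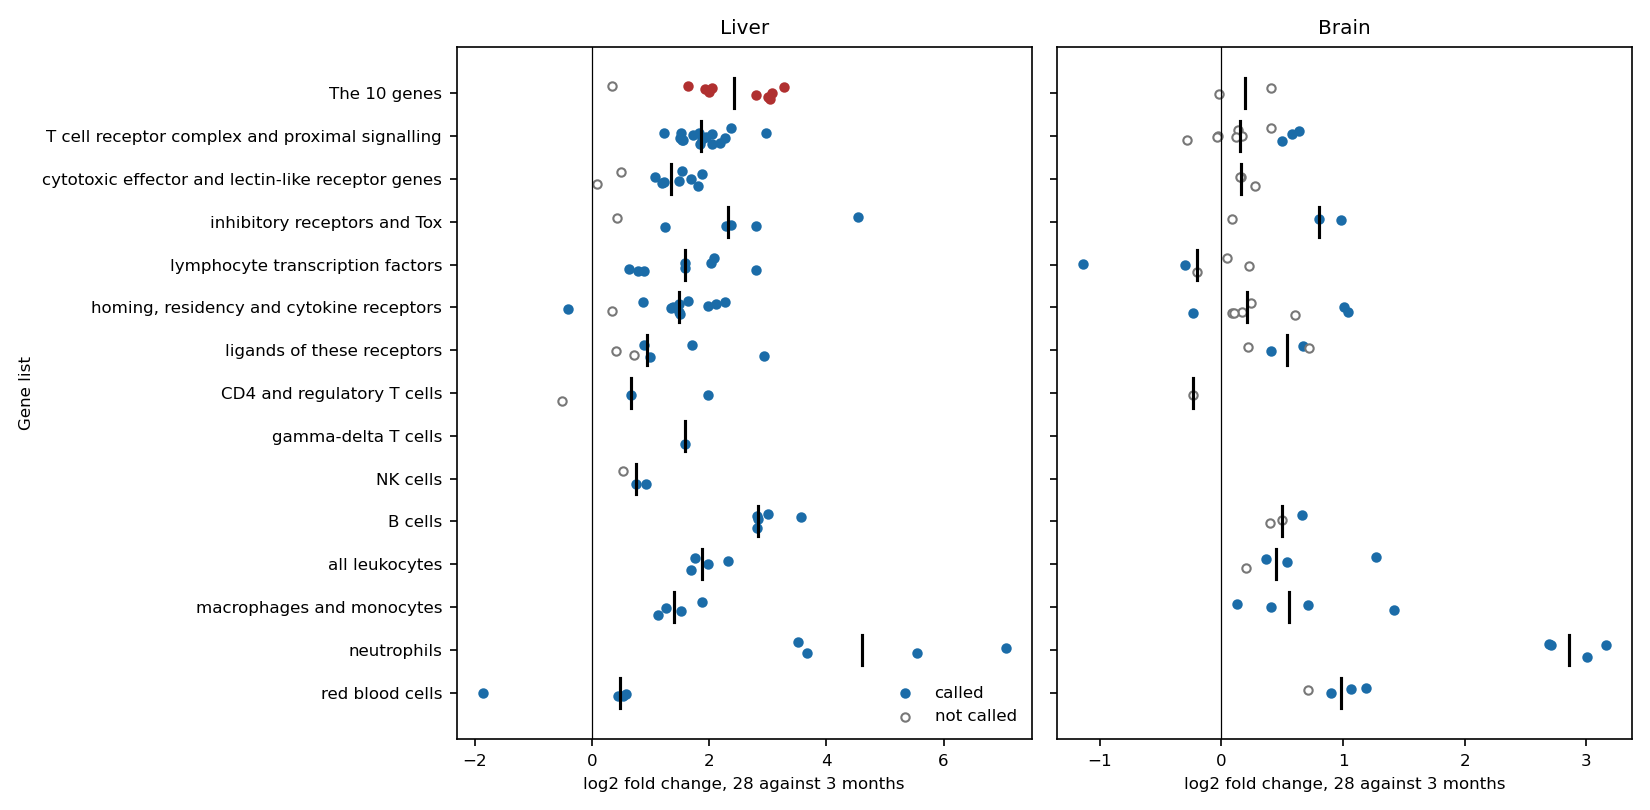
Log2 fold change from 3 to 28 months for each gene kept in the fit, by list, in liver and in brain, with filled points for genes that passed the test, open points for those that did not, and a bar at each list's median. In liver the 10 genes and the T cell lists lie to the right of 0, S1pr1 and Cd4 excepted, together with B cell, leukocyte, macrophage and neutrophil markers, and in brain most of the T cell genes lie near 0.

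In brain the same genes were scarce, and 2 of the 10, Gzmk and Ccl5, had enough counts for the fit. At 28 against 3 months 0 of these 2 were called, while 28.3% of all genes tested were called, 16.3% higher and 12.0% lower. The count was also 0 of 2 at 24 against 3 months (10.1% of all genes tested), 15 against 3 (0.871%), 9 against 3 (0.315%) and 28 against 24 months (1.09%), and at 15 against 9 months, where edgeR called 0 genes in all (532 at an unadjusted p under 0.05).

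**Figure D5:**
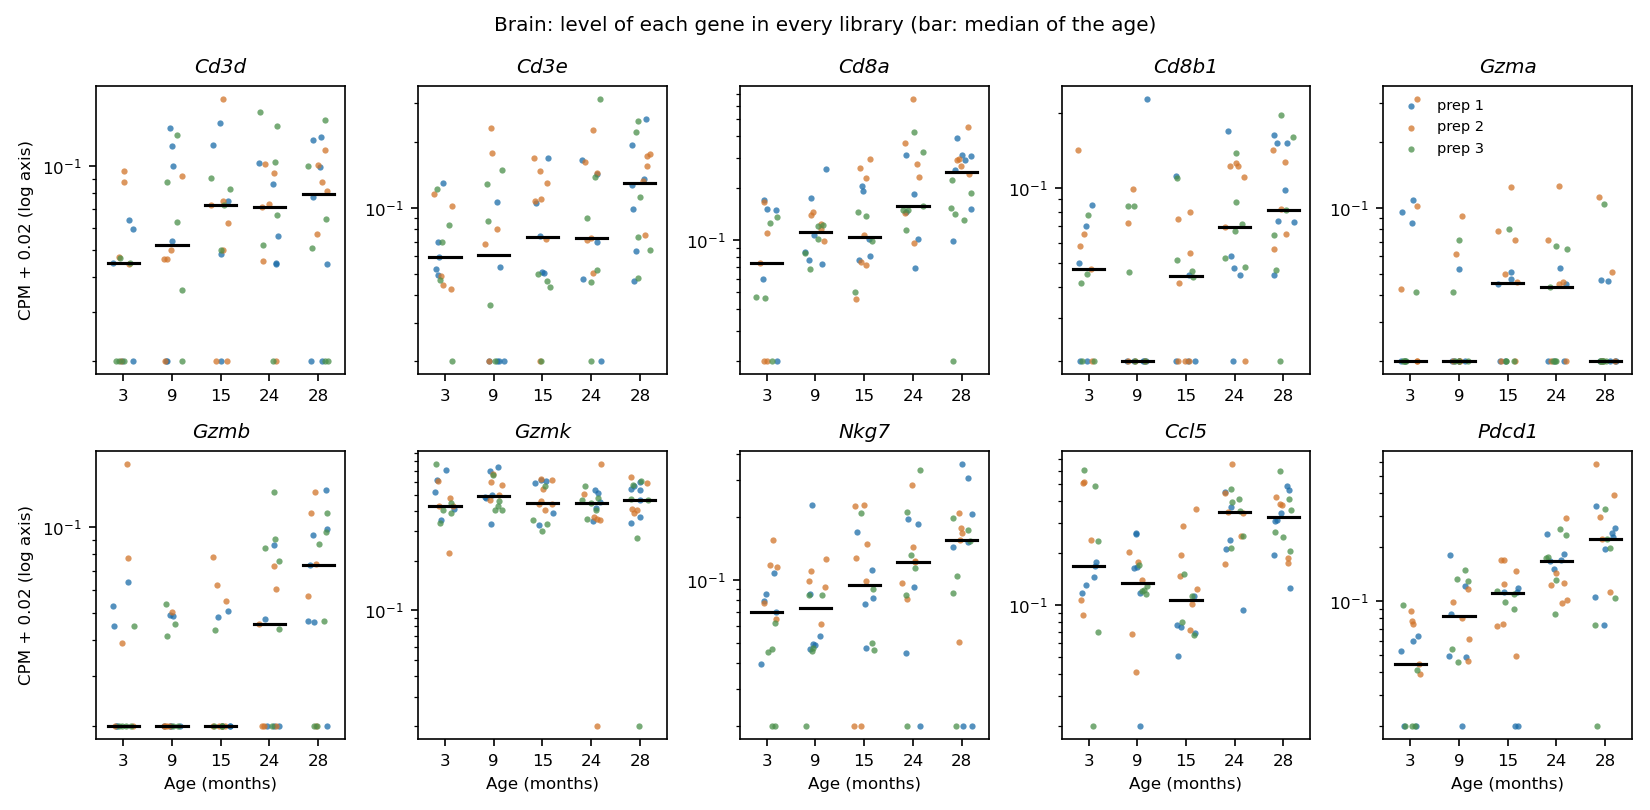
Level of each gene in every brain library, as CPM plus 0.02 on a log axis, against age in months, with colours for the 3 preps and a bar at the median of each age. Gzmk stays level over the 5 ages apart from 2 libraries with 0 counts, and Pdcd1 and Cd8a lie higher in the older brains.

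Gzmk had the highest median of the 10 in brain per kilobase of merged exons at 3 and at 28 months, with 0.293 and 0.322 CPM per kilobase. At 28 months Ccl5 was at 0.317, a gap smaller than the spread between libraries. The level of Gzmk stayed flat across the ages. Its medians were 0.407, 0.474, 0.427, 0.428 and 0.447 CPM at the 5 ages, and its change from 3 to 28 months was -0.02 ± 0.16 on the log2 scale (adjusted p = 0.966 in edgeR's test). At 3 months the brain median of 0.407 CPM compared with 0.0277 CPM in liver. Every brain held at least 7 counts of Gzmk except 24 months replicate 13 and 28 months replicate 15, the brains that stood apart, which held 0. Their depth was low, at 19.7 and 11.5 M counts, so that their 3-count floors were 0.159 and 0.345 CPM. GENCODE lists 3 transcripts of Gzmk in GRCm38: Gzmk-201 and Gzmk-203 start near the RefSeq site, whereas Gzmk-202 (chr13:113171608-113225908, minus strand, 6 exons) starts 44.9 kilobases upstream and spans Esm1, an endothelial gene on the plus strand at chr13:113209659-113218098. Counts per gene do not tell these transcripts apart.

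Ccl5 in brain was lowest in the middle ages. Its medians were 0.148, 0.115, 0.0872, 0.324 and 0.304 CPM at the 5 ages, and it ran from 0.0306 to 0.341 CPM at 15 months and from 0.0738 to 0.636 CPM at 24 months. The rise from 15 to 24 months was 2.74-fold (log2 1.45 ± 0.31, edgeR adjusted p = 0.00449), the single member call in the filtered brain fit, in a comparison where 0.679% of all genes tested were called higher. Against 3 months the values were -0.87 ± 0.31 at 9 months, -1.04 ± 0.32 at 15 months, 0.41 ± 0.27 at 24 months and 0.41 ± 0.27 at 28 months, none of them called in this fit. The groups overlapped in each of these comparisons. Other settings, given at the end, called 1 of the 2 brain genes at 15, 24 and 28 against 3 months.

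The other 8 genes were counted in brain by the handful, so mean CPM at 28 and 3 months (18 and 15 brains) was compared by two-sided permutation tests with 100000 resamples. Adjusted values come from a separate run with the same regroupings for every gene, over the 18297 brain genes that the filter left out and that had at least 1 count in these libraries, of which 0.618% were called. Pdcd1 had a median of 0.0244 CPM at 3 months (0 to 0.0747) and 0.202 CPM at 28 months (0 to 0.566), from 18 and 134 counts in all. All 15 young brains were at the floor, and 15 of the 18 old brains lay above the highest young one. The old mean was at least 2.77-fold higher than the mean 3-count floor of the young brains, 0.0729 CPM, and 6.95 times their measured mean (0.202 ± 0.137 SD against 0.0290 ± 0.0265, permutation p = 1e-05, the smallest these permutations can give, adjusted 0.0134). Cd8a had a median of 0.0543 CPM at 3 months (0 to 0.150) and 0.228 CPM at 28 months (0 to 0.431), from 45 and 146 counts. Here 12 of 18 old brains were above the highest young one, and the mean was 3.15-fold higher (permutation p = 7.00e-05, adjusted 0.0254). These 2 of the 8 genes were called.

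The other 6 did not pass after that adjustment (adjusted permutation p from 0.171 to 0.928), which was added after seeing the data. Adjusted over the 8 genes alone, as first planned, 6 of 8 passed, with Cd3e (0.00579), Cd8b1 (0.00744), Nkg7 (0.00744) and Cd3d (0.0185) in addition to Pdcd1 and Cd8a. Mean CPM at 28 against 3 months was 0.113 against 0.0504 for Cd3e, 0.0799 against 0.0321 for Cd8b1, 0.130 against 0.0538 for Nkg7, 0.0551 against 0.0237 for Cd3d and 0.0516 against 0.0233 for Gzmb, and for Gzma 0.0144 against 0.0431. With unadjusted permutation p under 0.05, 7 of 8 had the higher mean at 28 months, all but Gzma, as did 4.68% of the 18297 genes and 10.2% of the 4837 among them with between 35 and 191 counts in all, the range of the 8. These 7 had the higher mean at 28 months in each of the 3 preps. The 3-month medians of the 8 genes all lay below the median 3-count floor, so that their levels at 3 months are poorly determined. In an edgeR fit with no filter on low counts, Cd8a (log2 1.60 ± 0.32), Nkg7 (1.35 ± 0.39) and Pdcd1 (2.73 ± 0.35) were called higher at 28 than at 3 months, 3 of the 10, while 13.0% of all genes in that fit were called.

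Without 28 months replicate 15, which had 0 counts of Cd8a, Nkg7 and Pdcd1, Cd8a and Pdcd1 were again the 2 of 8 called (adjusted permutation p = 0.00457 for each), where 0.843% of 18264 genes were. With unadjusted p under 0.05 the count was again 7 of 8, beside 5.79% of those genes and 12.8% of the 4837 with as many counts. Mean levels at 28 months were then 0.214 CPM for Pdcd1 and 0.227 CPM for Cd8a. For the 2 genes in the fit, leaving out both brains that stood apart gave a change from 3 to 28 months of 0.02 ± 0.13 for Gzmk and 0.36 ± 0.27 for Ccl5, neither called, and the rise of Ccl5 from 15 to 24 months was 1.39 ± 0.31 (edgeR adjusted p = 0.00713).

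Beside these changes, 4 of 4 neutrophil genes (median log2 fold change 2.86), 3 of 4 red cell genes (0.98) and 4 of 4 macrophage genes (0.56) were called higher in brain at 28 than at 3 months. The summed levels of the neutrophil and red cell genes had medians of 0.847 and 65.3 CPM at 3 months and 6.77 and 118 CPM at 28 months. Macrophage markers summed to between 117 and 145 CPM at 3 months and between 130 and 221 CPM at 28 months. The hepatocyte marker Apoa1 was called higher in brain too (1.60 ± 0.31), from 0.174 to 0.425 CPM at 3 months and from 0.323 to 8.04 CPM, in replicate 15, at 28 months, and Alb, below the filter, reached 18.5 CPM in 28 months replicate 5. Leukocyte markers ran from 112 to 134 CPM at 3 months and from 104 to 356 CPM at 28 months, with 3 of 4 called. The part of these cell types in the members' changes was not tested. Of the related genes, read beside 16.3% of all brain genes called higher and 12.0% lower in this comparison, 3 of 10 tested in the receptor list were called higher (among them Skap1 at 0.64 and Lat at 0.50), 0 of 3 in the cytotoxic list and 2 of 3 among inhibitory receptors (Lag3 0.99 and Havcr2 0.80). Eomes (-1.14 ± 0.37) and Lef1 (-0.30 ± 0.11) were called lower, Il2rb (1.01), Cxcl16 (0.67) and Cd274 (0.41) higher, and S1pr1 (-0.23 ± 0.06) lower. In the brain Eomes, Lef1, Lag3, Cxcl16 and S1pr1 are also made by cells other than lymphocytes. Which cells made Havcr2 and the leukocyte and macrophage markers was not tested. At 3 months these markers had medians of 121 and 123 CPM in brain, beside 0.0394 CPM of Cd3e.

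The difference between the tissues was tested as an interaction of tissue and age in 1 edgeR fit of all libraries. It had no term for the mouse, although 82 mice gave both tissues. For Gzmk the change from 3 to 28 months was 3.12 ± 0.65 larger in liver on the log2 scale (adjusted p = 2.69e-05), and for Ccl5 it was 2.65 ± 0.61 larger (adjusted p = 0.000146). Thus 2 of 2 genes kept in both tissues were called, where 49.2% of such genes were. When all genes kept in liver entered the fit, 3 of 10 were called (45.8% of all genes in it), with Cd8a at 1.47 ± 0.64 (adjusted p = 0.0498) as the third. That larger fit was not repeated with a term for the mouse. The difference was 0.60 ± 1.23 for Pdcd1, 0.56 ± 0.83 for Cd3d, 0.97 ± 0.56 for Cd3e, 0.72 ± 0.68 for Nkg7, 0.83 ± 0.97 for Gzmb, 1.60 ± 0.81 for Cd8b1 and 1.64 ± 0.88 for Gzma. These 7 did not pass (edgeR adjusted p from 0.0951 to 0.720), although the last 2 were larger than that of Cd8a. Without the 3 livers and 2 brains that stood apart the differences were 5.18 ± 0.60 for Gzmk and 3.25 ± 0.46 for Ccl5.

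Brain and liver levels of the same mouse were compared once age and prep means were removed. Over 82 mice Pearson's r ran from -0.11 for Gzmk to 0.28 for Pdcd1, and 0 of 10 genes passed in r or rho after adjustment over the 10, with brain values permuted within age. For Pdcd1 r was 0.28 (permutation p = 0.0220, adjusted 0.146) and rho 0.31 (permutation p = 0.00785, adjusted 0.0785), and these did not pass. Without the 2 mice farthest from the median, rho of Pdcd1 was 0.36 and passed (permutation p = 0.00212, adjusted 0.0212), while r was 0.35 and did not (permutation p = 0.00512, adjusted 0.0512). Of the mice whose livers stood apart, the 3-month mouse of replicate 12 had the highest brain level of its age for 3 of 10 genes, the 24-month mouse of replicate 13 for 3 and that of replicate 10 for none, while among the 24-month brains replicate 9 was highest for 4.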

How the data were processed

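Poly(A) RNA, extracted with QIAzol and chloroform, went through a TruSeq protocol that keeps strand and was read as 100-base pairs, per the labels' protocols. The deposited values are raw read counts per Ensembl gene, 1 table per tissue. Per the submitters' processing notes the tools were cutadapt 2.8, HISAT2 2.1.0, SAMtools 1.9 and featureCounts of Subread 2.0.1 with GRCm38.p6; the strand setting and annotation release are not given in the sources used here. Symbols were found for 55144 of 55471 identifiers. Counts were fitted per tissue with edgeR 4.0.16 in R 4.3.3 (filterByExpr with a minimum count of 10, TMM scaling, terms for age and prep, quasi-likelihood F test, Benjamini-Hochberg adjustment over all genes of a contrast). Each SE was taken as |log2 fold change| / sqrt(F). Permutations used 100000 resamples and a pseudocount of 0.1 CPM. Alternatives were DESeq2 1.42.0, voom weights of limma 3.58.1, no filter, single preps, a replicate block, other pseudocounts and libraries left out; the fits were tested on simulated data. No label says that libraries of 1 age and tissue shared anything but their prep. Within a tissue each library came from its own mouse, while brain and liver of 1 age and number came from the same mouse.

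The 10 genes and all lists were chosen with earlier results of these data known. Named are all 10, the 3 called genes with the largest change in each pathway list and tissue, markers beside a result, and the 5 genes most like Cd3e and Gzmk. Some list genes that this rule would name are not reported here. Further list genes, mostly those not called, and the libraries that stood apart were picked after their values were seen. Gene models were those of GENCODE M21.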

Additional observations from a re-analysis of the deposited data

Results flagged for a closer look

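A difference between the tissues was found for both genes kept by the filter in each of them. The change of Gzmk from 3 to 28 months was 3.12 larger in liver than in brain on the log2 scale, and that of Ccl5 was 2.65 larger, by the interaction of tissue and age in edgeR's quasi-likelihood test (adjusted p = 2.69e-05 and 0.000146). DESeq2 gave 3.21 and 2.52, and a block for the mouse 3.69 and 2.63. Without the 3 livers and 2 brains that stood apart the values were 5.18 and 3.25, and that of Gzmk then rests on young livers that were all at the floor of 3 counts. When all 10 genes entered the fit, without a block for the mouse, 3 were called, with Cd8a at 1.47, and 7 were not. In that fit 45.8% of all genes were called. The cause was not tested.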

How the results depend on the processing

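For 28 against 3 months in liver, 1 of 10 genes was called in prep 2 alone, and leaving out single libraries gave 9 to 10. For 24 against 3 months 1 was called in prep 1 alone (5.83% of all genes tested), with changes from 0.37 to 3.12, Gzma was -0.31 in prep 2 alone, and single libraries gave 9 to 10. At 15 against 3 months voom with quality weights called 2 (6.21%), the fit without 3 livers 9, and single libraries left out 0 to 7 (7 without 3 months replicate 12). At 28 against 24 months voom called 5 (26.7%) and the fit without 3 livers 7, and at 9 against 3 months that fit called 1, Pdcd1 (5.94%). With 15 months replicate 7 left out too, 15 against 3 months gave 7 (8.89%). The other 2 comparisons then gave 8 and 1, where the fit without 3 livers called 30.5% and 5.94% of all genes tested. In brain 28 against 3 months gave 3 calls with no filter (13.0%), 1 in prep 1 alone (10.6%) and 1 with voom (41.2%). For 24 against 3 months no filter gave 2 (3.89%) and voom 1 (26.5%), and 15 against 3 months gave 0 to 1 with single libraries left out (1 without 15 months replicate 14, with 1.04% of all genes). Of the ratios to Cd3e, 4 passed with a pseudocount of 0.1, 7 with 1, 6 with 0.01 and 6 without 3 months replicate 12. With 1, Cd8b1 was -0.034, Gzmk -0.28 and Pdcd1 -0.31. The causes were not tested. A replicate block left 9 calls in liver and 0 in brain, and a mouse block left both interactions called. Replicate numbers do not pair the ages: libraries of a number correlated at -0.35 to 0.28 in liver and -0.36 to 0.30 in brain. Of the 8 low brain genes 6 passed when adjusted over the 8, 7 without 28 months replicate 15, and 2 when adjusted over all low genes, which was added after seeing the data. Depth limits these 8 genes, whose medians at 3 months were 0 to 2 counts per library.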
